A study of Mus musculus with 12 samples.

Results

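The 2 genes described here, Wfs1 and Cisd2, are the mouse counterparts of the genes whose loss causes Wolfram syndrome in humans, and they were chosen by name from the 24078 entries of the islet RNA table. WFS1, or wolframin, is a membrane glycoprotein of the endoplasmic reticulum (ER) that is abundant in pancreatic beta cells and takes part in calcium handling, protein folding and insulin granule maturation. CISD2, also called NAF-1 or Miner1, is a small NEET protein that carries an iron-sulfur cluster and sits on the ER and on mitochondrial contact sites. Loss of WFS1 gives juvenile diabetes with optic atrophy, and loss of CISD2 gives a related form of the syndrome. The level of each gene was followed over the 3 Wfs1 genotypes, first to describe Wfs1 itself, then to see whether Cisd2 was higher where Wfs1 was lost, and last to describe which transcripts varied with Wfs1.

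RNA came from pancreatic islets of 12 male mice aged 5 to 6 months, 4 WT, 4 Wfs1HZ with a single mutant Wfs1 allele and 4 Wfs1KO with both alleles mutant, with 1 library for each animal. The animals were F2 hybrids of 129S6/SvEvTac and C57BL/6, and the mutant allele Wfs1tm1Koks has most of exon 8 replaced by a LacZ cassette in the germline. Islets of all groups were picked by hand after collagenase digestion and kept overnight in high glucose medium before RNA isolation. Values are RPKM, reads divided by the length of the transcript and by the number of mapped reads. Levels of different genes may be compared on this scale, with a limit for mutant Wfs1 that is given below.

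The allele leaves the start of the gene in place. Wfs1 lies at chr5:36966104-36989205 on the minus strand (mm10, annotation GENCODE M21) and its transcript has 8 exons and 3787 nt. Exon 8, chr5:36966104-36968678, is the last exon, with 2575 nt or 68.0% of the transcript, and it holds 1803 of the 2670 coding nt together with the 3′ end of the transcript. The first 867 coding nt lie in the exons that the cassette does not touch. The junction of exon 7 and exon 8 is printed here because exon 8, most of which the cassette replaces, begins there. The replacement starts further inside exon 8, at a point that was not placed here, so the printed bases of exon 8 do not mark it. The last 30 nt of exon 7 (chr5:36971558-36971587) are in lower case and the first 30 nt of exon 8 (chr5:36968649-36968678) in capitals, on the minus strand.
Wfs1 exon 7 to exon 8: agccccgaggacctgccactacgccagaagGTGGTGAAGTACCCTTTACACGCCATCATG
The table gives a single RPKM for the gene and does not divide it by exon. Reads from exons 1 to 7 of the mutant allele, and from the part of exon 8 that it keeps, would count toward Wfs1, and exon 8 is not shown apart. A mutant transcript lacks most of exon 8, while RPKM divides by a single length for the gene. In Wfs1HZ and Wfs1KO the Wfs1 RPKM is therefore not a measure of the number of Wfs1 transcripts. How much of a lower value comes from the missing sequence was not tested.

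Cisd2 lies at chr3:135406412-135423925 on the minus strand, with 3 exons, a transcript of 3361 nt and 405 coding nt. Its paralogs in the NEET family are Cisd1, which encodes mitoNEET of the outer mitochondrial membrane, and Cisd3, which encodes a NEET protein of the mitochondrial matrix. The most similar stretch of 60 coding nt of Cisd2 and Cisd1 is printed here because reads from closely similar paralogs could be mistaken for each other. Capitals mark bases that are identical in both.
Cisd2, coding nt 214 to 273: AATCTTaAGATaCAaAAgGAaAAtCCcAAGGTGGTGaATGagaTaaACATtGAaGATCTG
Cisd1, coding nt 136 to 195: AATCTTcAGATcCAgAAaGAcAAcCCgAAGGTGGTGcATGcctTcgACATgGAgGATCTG
Even here 45 of 60 bases (75.0%) matched, and the longest run shared by the 2 whole transcripts was 11 nt. For Cisd2 and Cisd3 the best coding stretch had 33 identical bases (55.0%) and the longest run shared by the whole transcripts was 10 nt. Forward reads were 75 nt and reverse reads 35 nt long. No run of 75 nt in the Wfs1 or Cisd2 transcript occurred in the same orientation in an annotated transcript of another gene. Runs of 35 nt shared with another gene began at 0.400% of the positions of Wfs1 and at 1.08% of the positions of Cisd2. Those of Wfs1 were found in 1173 other genes and those of Cisd2 in 1. Matches in the opposite orientation were not searched.

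The islet preparations were not alike in depth or in cell content. Depth estimated from the RPKM steps of short RNA genes was 2940000 to 9030000 reads in WT, 2220000 to 7430000 in Wfs1HZ and 3320000 to 9660000 in Wfs1KO libraries. These depths are well below the number of reads that the study states for its samples, and the gap was not resolved. Depths and read numbers given here are therefore by this estimate. All libraries held the islet hormones. The summed RPKM of 14 beta cell markers ranged from 32169 to 180038 in WT, from 12615 to 137851 in Wfs1HZ and from 22472 to 91520 in Wfs1KO. Of these markers, Mafa, a beta cell transcription factor, was listed at 0 in all WT libraries and was too low to be tested. The summed RPKM of 11 markers of acinar cells, the enzyme-secreting cells around the islets, ranged from 49973 to 110535 in WT, from 8286 to 289396 in Wfs1HZ and from 7890 to 260259 in Wfs1KO. Wfs1HZ replicate 2 stood apart. It had the lowest depth, the lowest beta cell markers and the highest sum of stroma markers (357 RPKM). Values of Wfs1 in Wfs1HZ are given with and without it. In bulk islet RNA, fewer cells of a type and less RNA per cell cannot be told apart.

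Wfs1 was one of the more abundant transcripts of WT islets and was lowest in Wfs1KO. The 4 WT animals had 33.94, 27.37, 24.85 and 28.43 RPKM. The 4 Wfs1HZ animals had 15.03, 4.69, 16.43 and 8.16 RPKM, and the 4 Wfs1KO animals had 5.08, 6.61, 3.46 and 2.45 RPKM. Every WT animal was above every mutant carrier, while Wfs1HZ and Wfs1KO overlapped because Wfs1HZ replicate 2 was below 2 of the Wfs1KO animals. The means were 28.6 ± 3.83 RPKM in WT, 11.1 ± 5.59 in Wfs1HZ and 4.4 ± 1.83 in Wfs1KO (SD, n = 4). Within each library Wfs1 stood at the 91.7th to 93.5th percentile of all entries in WT, at the 57.8th to 86.3rd in Wfs1HZ and at the 54.6th to 71.0th in Wfs1KO. By this estimate of depth these values rest on 277 to 1140 reads in WT, 39.4 to 462 in Wfs1HZ and 30.8 to 186 in Wfs1KO, and Wfs1 was above 0 in all Wfs1KO libraries. The Wfs1KO mean was 15.4% of the WT mean in RPKM, which is not a share of transcripts, since the mutant allele lacks most of exon 8.

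Between Wfs1KO and WT islets the level of Wfs1 fell by 2.76 on the log2(RPKM + 0.1) scale (SE 0.29, 95% interval -3.42 to -2.10, adjusted p = 0.04 from limma). It was 1 of 3 transcripts with an FDR under 0.05, which is 0.0138% of the 21701 tested. The same values compared by exact permutation, two-sided, gave p = 0.0286, the smallest that 4 against 4 animals allow. Groups that did not overlap, with Wfs1KO lower, made up 0.991% of all transcripts. The size of the difference held more firmly than its adjusted p, which was between 0.0666 and 0.314 when any single animal was left out, with a log2 fold change of -2.98 to -2.52.

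In Wfs1HZ islets the mean of Wfs1 lay below the midpoint between the other genotypes, which is given as a description without a test. The midpoint of the WT and Wfs1KO means was 16.5 RPKM, and 4 of 4 Wfs1HZ animals were below it, replicate 3 only just, at 16.43 RPKM. After median-of-ratios scaling, which sets the typical transcript equal between libraries, the midpoint was 16.2 RPKM and replicate 3 was above it at 16.7, so that 3 of 4 were below. As percent of the WT mean the Wfs1HZ animals stood at 52.5, 16.4, 57.4 and 28.5, with a mean of 38.7, or 46.1 without Wfs1HZ replicate 2. Replicates 1 and 3 were thus close to the midpoint and replicates 2 and 4 well below it. Against WT the log2 fold change was -1.52 (SE 0.37, 95% interval -2.35 to -0.69), and the groups did not overlap, as was the case in this direction for 1.08% of all transcripts. The adjusted p from limma was 1, and 0 of the 21701 transcripts passed in this pair. The unadjusted p was 0.00227, at rank 8, where 511 transcripts (2.35%) had an unadjusted p under 0.05, and the exact two-sided permutation test gave p = 0.0286. Without Wfs1HZ replicate 2 the log2 fold change was -1.17.

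Between Wfs1KO and Wfs1HZ the log2 fold change of Wfs1 was -1.24 (SE 0.46, 95% interval -2.26 to -0.23, adjusted p = 1 from limma), with overlapping animals. The interval excluded 0 and the unadjusted p was 0.0213, but neither the adjusted p nor the exact two-sided permutation test (p = 0.0857) reached 0.05. No transcript passed an FDR of 0.05 by limma in this pair, and 532 (2.45%) had an unadjusted p under 0.05. Over all 12 animals, the Wfs1 level rose by 1.38 on the log2 scale for each wild-type allele (exact two-sided permutation test of the slope over 34650 divisions of the animals, p = 0.000173).

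**Figure D1:**
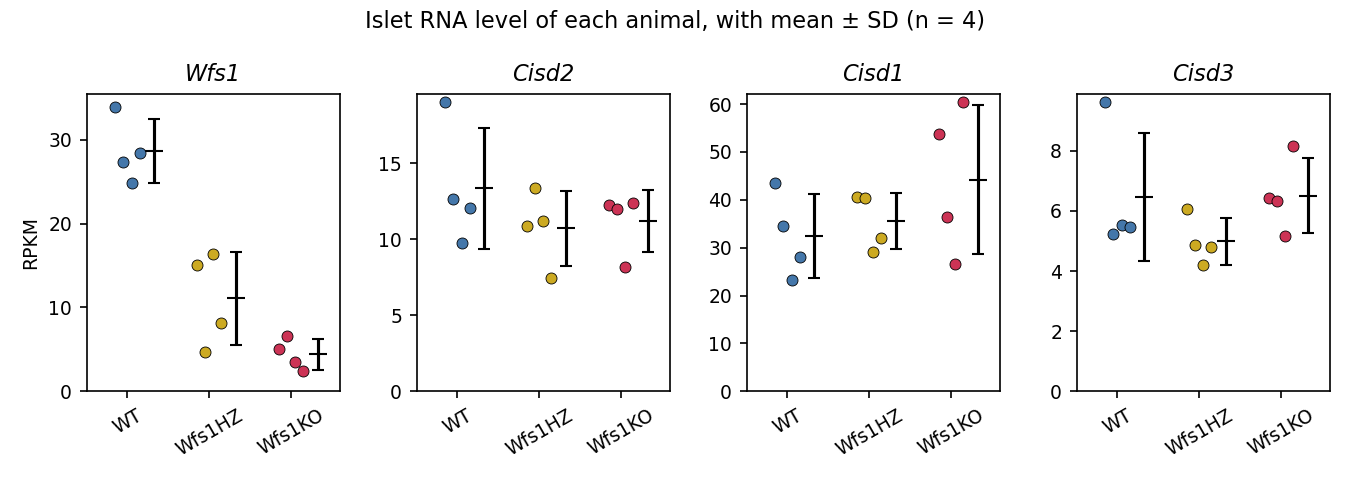
RPKM of Wfs1, Cisd2, Cisd1 and Cisd3 in each animal (points, vertical axis from 0) by genotype, with the mean ± SD of 4 animals beside the points. Wfs1 went from 24.85 to 33.94 RPKM in WT to 2.45 to 6.61 in Wfs1KO, whereas the 3 NEET genes overlapped between all genotypes.

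Cisd2 was not higher in islets with less Wfs1. The 4 WT animals had 18.99, 12.63, 9.72 and 12.05 RPKM of Cisd2, the 4 Wfs1HZ animals 10.89, 13.38, 11.18 and 7.43 RPKM, and the 4 Wfs1KO animals 12.22, 11.97, 8.19 and 12.39 RPKM. The highest value was WT replicate 1 and the lowest Wfs1HZ replicate 4, and all 3 genotypes overlapped. The means were 13.3 ± 3.97 RPKM in WT, 10.7 ± 2.46 in Wfs1HZ and 11.2 ± 2.01 in Wfs1KO (SD, n = 4), on 96.1 to 565 reads in each library by the same estimate of depth.

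The differences of Cisd2 were within the spread between animals in every pair. Wfs1KO against WT gave a log2 fold change of -0.23 (SE 0.24, adjusted p = 0.936 from limma) and an exact two-sided permutation p of 0.371. The 95% interval, -0.77 to 0.31, corresponds to 58.6% to 124% of the WT level. A mean of Cisd2 in Wfs1KO above 124% of WT lay outside it. Changes inside the interval could not be told from no change with 4 animals, and the smallest detectable change was not computed. The bound of 124% holds for the deposited scale. With beta cell marker scaling the value turned to 0.30 and the interval reached from 76.0% to 199% of WT. Wfs1HZ against WT gave -0.30 (SE 0.27, 95% interval -0.91 to 0.30 or 53.4% to 123% of WT, adjusted p = 1 from limma). Wfs1KO against Wfs1HZ gave 0.07 (SE 0.26, 95% interval -0.52 to 0.66 or 70.0% to 158% of Wfs1HZ, adjusted p = 1 from limma). The slope of Cisd2 over the wild-type alleles of Wfs1 was 0.11 per allele on the log2 scale (exact two-sided permutation test, p = 0.384). By unadjusted p, Cisd2 ranked 8510 of 21701 between Wfs1KO and WT, and 40.5% of all transcripts had a smaller change. Without WT replicate 1, the animal with the highest Cisd2, the Wfs1KO against WT value was -0.05.

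The RPKM ratio of the 2 Wolfram syndrome genes therefore turned over between genotypes. The ratio of Wfs1 to Cisd2 RPKM within a library was 1.79 to 2.56 in WT, 0.351 to 1.47 in Wfs1HZ and 0.198 to 0.552 in Wfs1KO. Wfs1 had the higher RPKM of the pair in 4 of 4 WT, 3 of 4 Wfs1HZ and 0 of 4 Wfs1KO animals. In Wfs1HZ and Wfs1KO this is not an order of transcript numbers, since the mutant allele lacks sequence that the RPKM length includes. Which of the pair had more transcripts in these animals was not tested. The log2 ratio differed by -2.53 between Wfs1KO and WT and by -1.22 between Wfs1HZ and WT (exact two-sided permutation test, p = 0.0286 for each). This ratio holds the same Wfs1 values as above and is not a second test of them.

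Neither of the other NEET genes differed between genotypes beyond the spread of the animals. Cisd1 was the most abundant of the family, with 43.55, 34.53, 23.31 and 28.16 RPKM in WT, 40.6, 40.33, 29.12 and 31.99 in Wfs1HZ and 53.69, 36.33, 26.57 and 60.36 in Wfs1KO. The 2 highest values were Wfs1KO animals, and the genotypes overlapped (Wfs1KO against WT log2 fold change 0.41, SE 0.30, adjusted p = 0.92 from limma). Cisd3 was the least abundant, with 9.63, 5.24, 5.52 and 5.45 RPKM in WT, 6.07, 4.88, 4.19 and 4.81 in Wfs1HZ and 6.43, 6.32, 5.15 and 8.14 in Wfs1KO (Wfs1KO against WT 0.04, SE 0.25, adjusted p = 0.998). Cisd2 relative to Cisd1, a ratio chosen after the values were seen, was 0.366 to 0.436 in WT, 0.232 to 0.384 in Wfs1HZ and 0.205 to 0.329 in Wfs1KO. It was lower in Wfs1KO than in WT with no overlap (log2 difference -0.64, exact two-sided permutation test, p = 0.0286), while for Wfs1HZ against WT (-0.46, p = 0.0571) and Wfs1KO against Wfs1HZ (-0.19, p = 0.429) the exact two-sided permutation test did not reach 0.05.

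**Figure D2:**
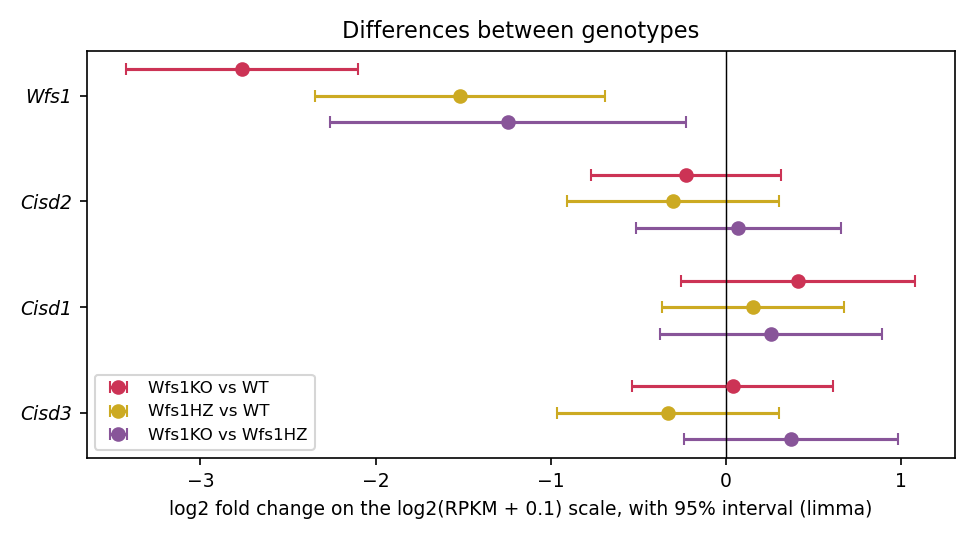
Log2 fold changes on the log2(RPKM + 0.1) scale (points, horizontal axis) with 95% intervals from limma (bars) for Wfs1 and the 3 NEET genes in the 3 pairs of genotypes. The Wfs1 intervals lie below 0 in all pairs, and the intervals of Cisd2, Cisd1 and Cisd3 include 0 in all pairs.

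Wfs1 varied with the beta cell markers of the libraries as well as with genotype, and not with these markers alone. The beta cell marker index, the mean log2(RPKM + 0.1) of the 14 markers, was 5.46 to 6.65 in WT, 4.83 to 6.75 in Wfs1HZ and 5.27 to 5.94 in Wfs1KO. Of the 13 beta cell markers tested, 11 had a lower mean in Wfs1KO, with a median log2 fold change of -0.75 against 0.07 for all transcripts, and 0 passed an FDR of 0.05 by limma. Deviations of Wfs1 from its genotype mean had a Pearson r of 0.754 with those of the index over the 12 animals, which share genotype, depth and purity, and an r of 0.699 with those of depth. With summed markers the r was 0.656 for beta cells, 0.686 for duct, 0.613 for immune, 0.479 for acinar and 0.264 for delta cells. It was negative, at -0.510 to -0.052, for alpha cell, PP cell, stroma, endothelial and nerve and glia markers. Within Wfs1HZ, the animal with the lowest index, replicate 2, had the lowest Wfs1.

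Relative to the beta cell markers Wfs1 still differed between genotypes, and the 3 groups no longer overlapped. Divided by the marker level of the same library and set back on the RPKM scale, Wfs1 was 20.4, 37.4, 22.8 and 18.2 in WT, 14.3, 9.94, 9.23 and 7.10 in Wfs1HZ and 5.11, 6.48, 5.39 and 3.36 in Wfs1KO. On this scale Wfs1HZ replicate 2 fell within the other Wfs1HZ animals. The log2 difference was -2.23 for Wfs1KO against WT, -1.26 for Wfs1HZ against WT and -0.97 for Wfs1KO against Wfs1HZ, each with p = 0.0286 by the exact two-sided permutation test. With limma on this scale Wfs1 in Wfs1KO was 21.2% of WT, against 14.8% on the RPKM scale, and its adjusted p of 0.154 (95% interval -2.96 to -1.51) no longer passed. For Wfs1KO against Wfs1HZ limma gave an interval of -2.03 to 0.08, or 24.5% to 106% of Wfs1HZ, which includes 0 (unadjusted p = 0.0677, adjusted p = 1). On the deposited scale 0.502% of all transcripts were lower without overlap in Wfs1KO than in Wfs1HZ, and Wfs1 was not among them. For Cisd2 the differences relative to beta cell markers were 0.30, -0.05 and 0.35 (p = 0.286, 0.914 and 0.514 by the same exact test). Cisd2 is expressed in most cell types, and the sign of its Wfs1KO against WT value depended on this scaling.

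On the deposited scale Cisd2 varied with the acinar content. Its Spearman rho with the summed acinar markers was -0.881 over the 12 animals, and its within-genotype Pearson r was -0.692, whereas its rho with the beta cell index was -0.182. Cisd2 also had a rho of 0.776 with the median-of-ratios factor of the library, so the link with acinar content cannot be told apart from library scaling. The lowest Cisd2 of Wfs1HZ (replicate 4, 7.43 RPKM) and of Wfs1KO (replicate 3, 8.19 RPKM) came from the libraries with the most acinar RNA, 289396 and 260259 summed RPKM. Median-of-ratios scaling brought the mutant animals closer together. Cisd2 was then 17.6, 11.4, 9.53 and 13.6 RPKM in WT, 10.1, 9.63, 11.4 and 11.6 in Wfs1HZ and 11.0, 11.1, 10.1 and 10.3 in Wfs1KO. The Wfs1HZ and Wfs1KO animals then lay between 9.63 and 11.6 RPKM. The scaled log2 fold change was -0.26 for Wfs1KO against WT (61.9% to 113% of WT) and 0.00 for Wfs1KO against Wfs1HZ (79.2% to 126% of Wfs1HZ).

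**Figure D3:**
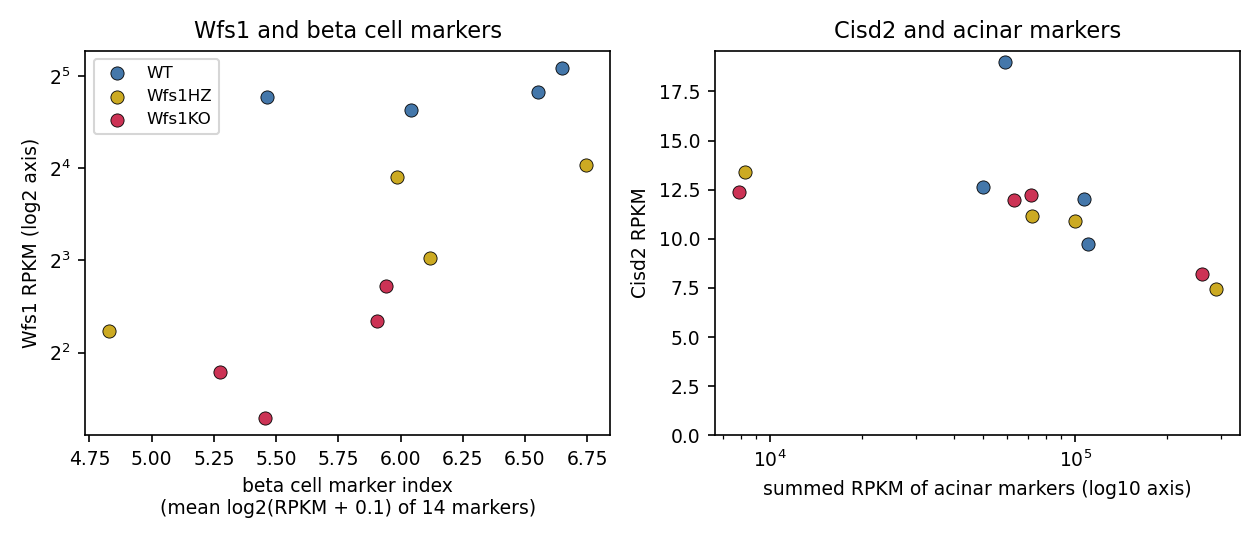
Left, Wfs1 RPKM (log2 axis) against the beta cell marker index of each animal, and right, Cisd2 RPKM (axis from 0) against the summed RPKM of 11 acinar markers (log10 axis), coloured by genotype. Wfs1KO animals lie below the other genotypes at a like index, and the libraries with 289396 and 260259 summed acinar RPKM have the lowest Cisd2 of their genotypes.

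Wfs1 and Cisd2 did not closely follow each other. Over the 12 animals, which share genotype, depth and purity, their Spearman rho was 0.161, Pearson's r of log2 values was 0.309 and Pearson's r of the deviations from the genotype means was 0.0996. After median-of-ratios scaling rho was 0.594. By rho with Wfs1, Cisd2 ranked 3309 of 13355 transcripts whose mean was 1 RPKM or more, at the 74.8th percentile.

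The transcripts most like Wfs1 over the 12 animals had their highest means in WT. Those with the highest rho were Prkcb (0.874), a protein kinase C isoform of the insulin secretion pathway, Uggt2 (0.867), a glucosyltransferase of ER glycoprotein quality control, Ang (0.860), the ribonuclease angiogenin, Fh1 (0.853), the fumarase of the citrate cycle, Sorl1 (0.846), a sorting receptor, Rnase4 (0.846), and Maged1 (0.839), an adaptor in cell death signalling. Ang and Rnase4 share a locus and first exons, so their reads are not independent. Such a rho of at least 0.8 was reached by 24 of 13355 transcripts (0.180%), and the rank order was chosen from the same animals, so these values are a description. Of the 16 transcripts at either end of that order, 7 remained with Pearson's r, 3 with median-of-ratios scaling and 0 with genotype means removed.

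Prkcb was 13.34 to 23.76 RPKM in WT, 7.01 to 19.67 in Wfs1HZ and 6.82 to 12.59 in Wfs1KO. Uggt2, at 5.45 to 8.11 RPKM in WT, was lower in every mutant animal (2.35 to 4.76 in Wfs1HZ and 3.25 to 4.6 in Wfs1KO). Of these 7 transcripts, which were chosen for likeness to Wfs1, Uggt2 was the one with both mutant genotypes below every WT animal. Over all transcripts 0.991% were lower than WT without overlap in Wfs1KO and 1.08% in Wfs1HZ. Rnase4 was the most abundant of the 7, with 483 to 891 RPKM in WT and 259 to 471 in Wfs1KO, and its lowest value was 117 RPKM in Wfs1HZ. None of the 7 had an FDR under 0.2 by limma between Wfs1KO and WT.

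The 8 transcripts most opposed to Wfs1 were Rrm2 (rho -0.907), a subunit of ribonucleotide reductase used in DNA synthesis, Rara (-0.874), a retinoic acid receptor, Klk4 (-0.867), a serine protease, Lmo4 (-0.860), a LIM domain cofactor of transcription, Rnf114 (-0.846), a ubiquitin ligase, Hmga2-ps1 (-0.839), 0610007N19Rik (-0.839) and Gpc3 (-0.832), a cell surface proteoglycan. Rara had 3.7 to 4.78 RPKM in WT, 5.75 to 8.76 in Wfs1HZ and 7.85 to 9.86 in Wfs1KO, with both mutant groups above every WT animal. Lmo4 also lay above WT in both mutant groups, at 2.38 to 4.44 RPKM in WT, 5.41 to 13.46 in Wfs1HZ and 6.77 to 11.57 in Wfs1KO. Rrm2 was low throughout, with 0.26 to 0.61 RPKM in WT, 0.69 to 2.91 in Wfs1HZ and 0.74 to 1.64 in Wfs1KO, again with every mutant animal above WT. Rara, Lmo4 and Rrm2 were chosen for opposition to Wfs1, which follows genotype, so their separation from WT is not a separate result. Over all transcripts 1.75% were higher than WT without overlap in Wfs1KO and 0.576% in Wfs1HZ. Between Wfs1KO and WT their adjusted p from limma was 0.342, 0.362 and 0.835. Every one of these opposed transcripts except Rara had its highest value in Wfs1HZ replicate 2, the library that stood apart in stroma markers. These values were 2.91 RPKM for Rrm2, 6.6 for Klk4, 13.46 for Lmo4, 46.58 for Rnf114, 27.21 for Hmga2-ps1, 10.36 for 0610007N19Rik and 16.57 for Gpc3. The order by rho was not recomputed without that library. By sign, 5 of 6 stroma markers were higher in Wfs1KO than in WT (median log2 fold change 1.34) and 6 of 6 in Wfs1HZ (0.85). The summed stroma markers had a rho of -0.699 with Wfs1 and the summed endothelial markers one of -0.601, and their part in the opposed transcripts was not tested.

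**Figure D4:**
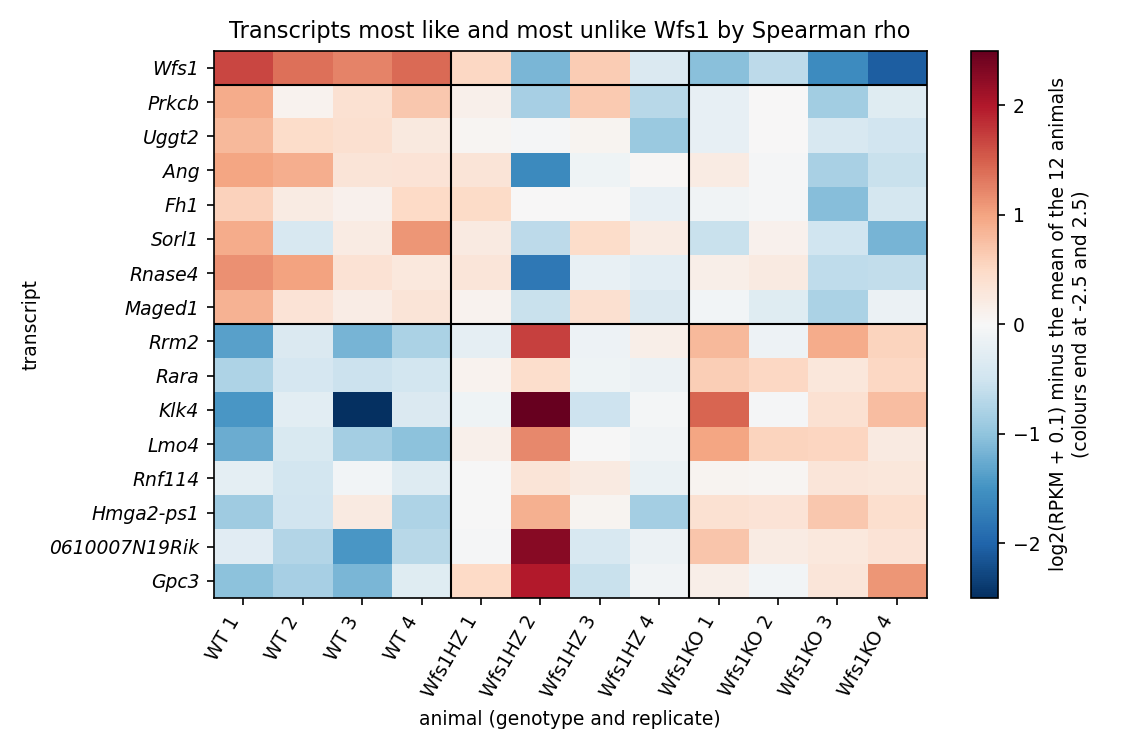
Level of Wfs1 (top row) and of 7 transcripts with the highest and 8 with the lowest Spearman rho with it, as log2(RPKM + 0.1) minus the mean of the 12 animals (colour, ending at -2.5 and 2.5), in columns of animals by genotype. The upper block is mostly red in WT and mostly blue in Wfs1KO, the lower block shows the reverse, and Wfs1HZ replicate 2 is among the most extreme columns.

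When genotype means were removed, other transcripts came first. The highest within-genotype r with Wfs1 were those of Ptprn2 (0.947), a protein of the insulin granule membrane, Rpn2 (0.936), a subunit of the oligosaccharyltransferase of the ER, Slc37a1 (0.927), a glucose-phosphate antiporter, Crtc2 (0.927), a coactivator of CREB, and Chm (0.925), an escort protein of Rab GTPases. Ptprn2, at 79.95 to 118.34 RPKM in WT, 32.88 to 116.59 in Wfs1HZ and 47.66 to 95.29 in Wfs1KO, overlapped between genotypes, as did the other 4. The lowest were Serpina6 (-0.928), Mir218-1 (-0.904), Pdcd1lg2 (-0.894), Gm4814 (-0.865) and Gm11240 (-0.865), all with a mean of at most 2.72 RPKM in each genotype. No transcript was shared between these 10 and those named by rho, and within-genotype deviations of Wfs1 went with the beta cell index and with depth, as given above.

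The transcripts most like Cisd2 overlapped between genotypes. They were Stambp (rho 0.965), a deubiquitinase of endosomes, Rpgr (0.956), a protein of the cilium, Lrrc28 (0.939), Cxxc4 (0.937) and Scai (0.937). A rho of at least 0.8 with Cisd2 was reached by 442 transcripts (3.31%), and the median rho of all 13355 was 0.392, which became 0.049 after median-of-ratios scaling. The 5 lowest were Cel (-0.909), Cpb1 (-0.881), Cuzd1 (-0.881), Pnliprp1 (-0.881) and Amy2b (-0.874), all genes of acinar cells. After median-of-ratios scaling these rho became 0.021, 0.042, 0.007, -0.028 and -0.126. The rho of Stambp, Rpgr, Lrrc28, Cxxc4 and Scai became 0.748, 0.301, 0.734, 0.434 and 0.249. Cel, the carboxyl ester lipase, ranged from 344 to 8256 RPKM in Wfs1KO alone.

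No gene of the listed partners and regulators of wolframin passed the test. All 20 were tested, and 0 had an FDR under 0.05 or 0.2 by limma in any pair, with 1 of 20 at an unadjusted p under 0.05 between Wfs1KO and WT. Over all transcripts 0.0461% had an FDR under 0.2 and 5.64% an unadjusted p under 0.05 in that pair. By sign 14 had a higher and 6 a lower mean in Wfs1KO, with a median log2 fold change of 0.08 against 0.07 for all transcripts. Non-overlapping groups were found for 1 of the 20, against 2.74% of all transcripts, and for 0 with median-of-ratios scaling. That gene was Vdac1, the anion channel of the outer mitochondrial membrane, with 57.11 to 80.13 RPKM in Wfs1KO and 81.6 to 114.14 in WT (log2 fold change -0.39, SE 0.19, adjusted p = 0.879 from limma). Vdac1 is also in the list of ER-mitochondria contact genes, where it was again the single non-overlapping member.

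The extremes of the partners were Itpr1 and Nlrp3. Itpr1, the inositol trisphosphate receptor that releases ER calcium, had 13.77, 35.78, 22.37 and 11.67 RPKM in WT and 10.18, 13.36, 8.29 and 21.46 in Wfs1KO, with overlap (-0.60, SE 0.40). Nlrp3, an inflammasome sensor, was near the detection limit, with 0.12 to 0.37 RPKM in WT and 0.32 to 1.58 in Wfs1KO (1.34, SE 0.60). Atp2a2, the ER calcium pump SERCA2 and a member of both partner lists, had a rho of 0.832 with Wfs1. The rho of the other wolframin partners with a mean of 1 RPKM or more ran from -0.469 (Txnip) to 0.524 (Vdac1). For the other CISD2 partners it ran from -0.517 (Gimap5) to 0.448 (Becn1). Between Wfs1KO and Wfs1HZ, the non-overlapping partner was Sel1l, a subunit of the ER-associated degradation complex, with 49.64 to 82.42 RPKM in Wfs1KO and 31.33 to 40.24 in Wfs1HZ (0.81, SE 0.23, adjusted p = 1 from limma). Between Wfs1HZ and WT it was Atf6, a sensor of ER stress whose degradation wolframin promotes. Atf6 had 31.47 to 40.47 RPKM in Wfs1HZ and 43.5 to 56.07 in WT (-0.41, SE 0.18, adjusted p = 1 from limma). It was not lower in Wfs1KO, where it had 37.93 to 75.65 RPKM and overlapped WT (0.09, SE 0.23). The share of all transcripts without overlap was 1.43% between Wfs1KO and Wfs1HZ (0.926% higher in Wfs1KO) and 1.66% between Wfs1HZ and WT.

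Of the 8 listed partners of CISD2, 1 did not overlap between Wfs1KO and WT, read against 2.74% of all transcripts (1.75% higher in Wfs1KO), and with quantile normalization it was 0. That gene was Gimap5. Gimap5, a GTPase of lymphocytes and endothelium, had 1.34, 1.37, 0.53 and 0.32 RPKM in WT, 3.85, 4.88, 2.5 and 0.51 in Wfs1HZ and 1.7, 2.16, 2.03 and 1.71 in Wfs1KO (Wfs1KO against WT 1.20, SE 0.48, adjusted p = 0.844 from limma). Endothelial markers moved the same way, with 5 of 5 higher in Wfs1KO by sign and summed RPKM of 54.7 to 67.1 in Wfs1KO against 21.7 to 54.9 in WT, and their part in this value was not tested. The list had a median log2 fold change of -0.19 with 3 members higher and 5 lower, and 0 had an FDR under 0.2. Bcl2 and Becn1, through which CISD2 is linked to autophagy, overlapped between Wfs1KO and WT.

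Between Wfs1KO and WT the remaining lists were close to the background. Of 22 genes of ER-mitochondria contact, 19 were in the table and tested, with 11 positive and 8 negative log2 fold changes between Wfs1KO and WT, a median of 0.04 and values from -0.60 (Itpr1) to 0.97 (Tmem173, the DNA sensor adaptor STING). Of 12 other genes of monogenic diabetes with ER stress, 11 were tested, with 6 positive and 5 negative, a median of 0.11 and values from -0.35 (Cdkal1, a tRNA modifying enzyme) to 0.58 (Manf, a secreted ER stress protein). Of 18 genes of iron-sulfur cluster assembly, the process that supplies the cluster of NEET proteins, 17 were tested, with 9 positive and 8 negative, a median of 0.03 and values from -0.26 (Fdxr) to 0.65 (Bola1). No member of the last 2 lists had non-overlapping groups between Wfs1KO and WT. In these 3 lists, 0 members had an FDR under 0.2 by limma in any pair, and 2 had an unadjusted p under 0.05 between Wfs1KO and WT. For Wfs1HZ against WT, ER-mitochondria contact had 15 lower and 4 higher (median -0.18), and the diabetes list 8 lower and 3 higher (-0.20), against 0.04 for all transcripts. For Wfs1KO against Wfs1HZ, 14 iron-sulfur genes were higher and 3 lower (0.16 against 0.04). The 1 non-overlapping member of the iron-sulfur list between Wfs1HZ and WT was Iscu, the scaffold on which clusters are built, with 12.21 to 16.53 RPKM in Wfs1HZ and 7.66 to 12.03 in WT, where 1.66% of all transcripts did not overlap (0.576% higher in Wfs1HZ).

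The genes around Wfs1 on chromosome 5 did not move with it. Of 17 tested genes within 1 Mb, 10 had a positive and 7 a negative value for Wfs1KO against WT, with a median of 0.00 and 0 genes with an FDR under 0.2 by limma. The nearest genes were Ppp2r2c (11 kb away, log2 fold change 0.60), a phosphatase subunit, Man2b2 (135.5 kb, -0.18) on the same side, and Crmp1 (252.7 kb, 0.04) and Evc (299.9 kb, -0.31) on the other. The groups did not overlap for 1 of the 17, Cytl1, which encodes a secreted cytokine-like protein and lies 746.3 kb away. Of all transcripts 2.74% did not overlap (1.75% higher in Wfs1KO), and with quantile normalization 0 of the 17 remained. Cytl1 had 0.85, 1, 2.41 and 7.44 RPKM in Wfs1KO and 0.81, 0.23, 0 and 0 in WT, where 0 is as listed (3.17, SE 0.91, adjusted p = 0.835 from limma). In Wfs1HZ it was 1.93, 37.21, 0 and 0 RPKM, so that replicate 2 exceeded all other animals.

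Around Cisd2 on chromosome 3, 11 genes were tested, 4 with a positive and 7 with a negative value for Wfs1KO against WT, with a median of -0.16. The nearest were 4930539J05Rik (12.3 kb, 0.01) and Ube2d3 (14.2 kb, -0.07), a ubiquitin conjugating enzyme, on 1 side, and Bdh2 (102 kb, -0.89) and Cenpe (132.8 kb, -0.46) on the other. Slc39a8, a zinc and manganese importer 401.4 kb away, was lower without overlap, with 3.13, 2.57, 3.92 and 1.79 RPKM in Wfs1KO and 4.37, 4.55, 5.7 and 8.08 in WT (-0.98, SE 0.31, adjusted p = 0.835 from limma). The RNA gene 4933401H06Rik lies within the span of Slc39a8 and was also lower without overlap (-1.62, SE 0.72, adjusted p = 0.879 from limma), and without strand their reads cannot be told apart. These 2 of 11 are read against 2.74% of all transcripts without overlap, and with median-of-ratios scaling they were 0.

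**Figure D5:**
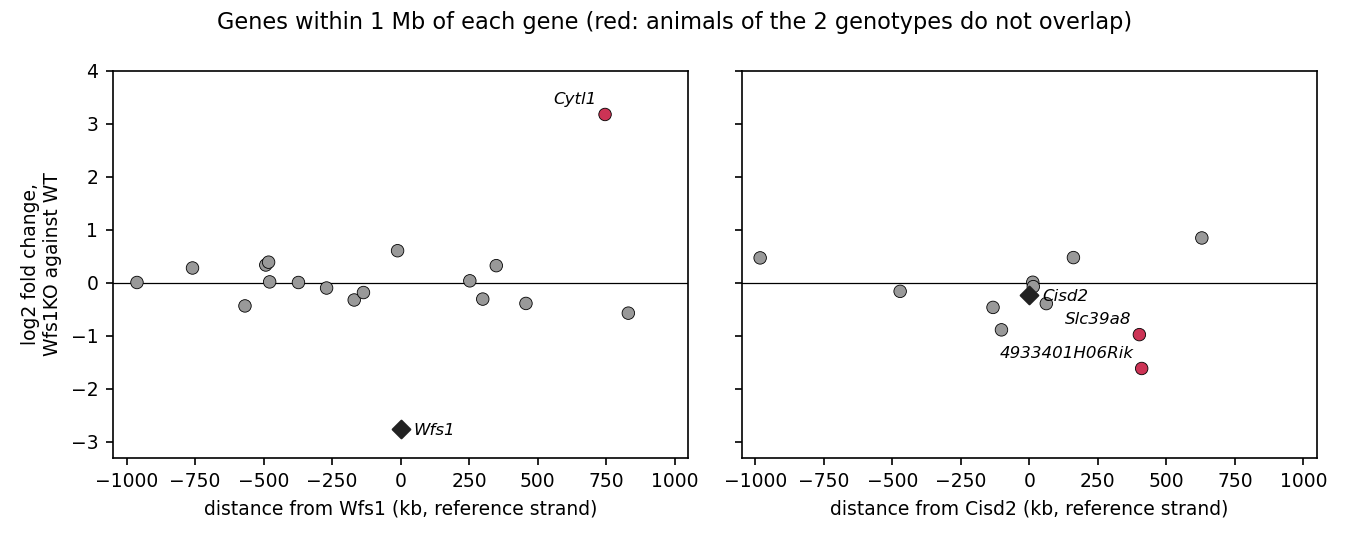
Log2 fold change between Wfs1KO and WT (vertical axis) of tested genes within 1 Mb of Wfs1 (left) and Cisd2 (right) against the distance from the gene in kb (horizontal axis), with the gene itself as a diamond and genes whose animals do not overlap in red. Wfs1 lies at -2.76 while its nearest neighbours lie between -0.31 and 0.60.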

How the data were processed

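Islet RNA of 12 animals, 4 of each genotype, was analysed. The authors made cDNA with the Ovation RNA-Seq System, sequenced on a SOLiD instrument, mapped to mm10 with LifeScope and deposited RPKM values, 1 column per animal. The annotation and counter behind the RPKM are not given in the sources used here. RPKM are not counts, so each pair of genotypes was fitted with limma 3.58.1 (R 4.3.3; trend in the variance) on log2(RPKM + 0.1), a scale that understates changes of low transcripts. Adjustment was by Benjamini-Hochberg over 21701 entries with a mean of at least 0.1 RPKM. Genotypes came from the sample labels. The procedure was tested on simulated data.

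Wfs1, Cisd2 and the gene lists were chosen with earlier results of these data known. Genes named are the NEET family, list members at the extremes, with an FDR under 0.2 or without overlap between Wfs1KO and WT, the 2 nearest tested neighbours on each side and those without overlap, and those most and least like Wfs1 or Cisd2, of which 1 is not reported here. Sel1l, Atf6, Iscu, Atp2a2, Bcl2 and Becn1 and markers beside a result were named after their values were seen. Single values were compared by exact two-sided permutation tests. Likeness is Spearman rho over 12 animals for transcripts whose mean was 1 RPKM or more.

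Depth was estimated from RNA genes under 200 nt, whose RPKM move in steps of 1 read; 72.3% to 82.4% of their low values lay within 0.1 read of a whole number. Approximate reads are therefore estimates and cover counting error only. At these depths 3 reads on a 2 kb transcript correspond to 0.155 to 0.677 RPKM, by an estimate well below the reads that the study states per sample, a gap that was not resolved. The table repeats 58 names and marks 969 entries as copies of a locus; reads shared between copies cannot be divided. GENCODE M21 held the names of 20752 entries (86.2%), and sequences and coordinates come from it. Tables and figures were made in Python 3.11.15 with scipy 1.17.1, pandas 2.3.3, numpy 2.4.6 and matplotlib 3.10.9. Alternatives were other pseudocounts (0.01 and 1), filters, scalings, variance models, a replicate block and each animal left out.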

Additional observations from a re-analysis of the deposited data

Results flagged for a closer look

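In Wfs1KO islets, Cisd2 of replicate 3 (8.19 RPKM) stood far below the other animals of its group, with a gap of 0.9 of the group's range. In WT islets, Cisd3 of replicate 1 (9.63 RPKM) stood far above the others, with a gap of 0.936 of the range. Of 18 groups of 4 values examined, 2 were thus set apart, and chance sets apart about 1 in 20. Wfs1KO replicate 3 had the most acinar RNA of its genotype, and its part in the Cisd2 value was not tested.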

How the results depend on the processing

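The Wfs1 difference between Wfs1KO and WT kept its direction in all 20 alternatives, but its adjusted p rose above 0.05 in 15. The log2 fold change was then -2.51 with a pseudocount of 1, -2.79 with 0.01, -2.76 without a filter or without a trend in the variance, -2.79 with median-of-ratios scaling, -2.24 with beta cell marker scaling, and -2.98 to -2.52 with an animal left out. With the replicate number as a block it was -2.76 (adjusted p = 0.541 from limma), and 0 transcripts passed. The labels state no link between animals with the same number. The correlations of their deviations were -0.134 to 0.0615 in this pair and -0.174 to 0.0854 for Wfs1KO against Wfs1HZ. For Wfs1HZ against WT they were -0.0543 to 0.228, with 0.228 for replicate 2 and 0.210 for replicate 4. Whether these animals shared a batch was not tested. The cause of these changes was not tested. The transcripts passing an FDR of 0.05 numbered 0 with a pseudocount of 1, no filter or the block, 5 with quantile normalization, 1 with all animals in a single fit, and 0 to 1 with an animal left out. For Wfs1HZ against WT 2 passed without a trend, and for Wfs1KO against Wfs1HZ 1 with quantile normalization or a robust variance and 5 with sample weights.

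Cisd2 turned to 0.30 for Wfs1KO against WT with beta cell marker scaling, where its slope was -0.15. Between Wfs1KO and Wfs1HZ it turned to -0.0036 with median-of-ratios scaling, -0.0075 with quantile normalization and -0.091 without Wfs1HZ replicate 4, the range over animals left out being -0.091 to 0.21. No alternative gave Cisd2 an adjusted p under 0.613. Beta cell marker scaling moved the median of all transcripts between Wfs1KO and WT from 0.07 to 0.54.

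Of the 16 transcripts chosen by rho with Wfs1, 7 remained with Pearson's r, 0 with deviations from the genotype means and 3 with median-of-ratios scaling. Counts of list members without overlap, recomputed after the data were seen, became 0 for the wolframin partners and the neighbours of Cisd2 with median-of-ratios scaling. With quantile normalization they became 0 for the CISD2 partners and the neighbours of Wfs1, 1 for the neighbours of Cisd2 and 2 for ER-mitochondria contact. With 4 animals a genotype, changes of Cisd2 inside its intervals could not be told from no change, and the smallest detectable change was not computed.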
